A study of Mus musculus with 3 samples.

Results

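The interleukin-1 family genes measured here were the 3 ligands Il1a, Il1b and Il18, the interleukin-36 gamma ligand Il1f9, and the inhibitors Il1rn, Il1r2 and Il18bp. These 7 genes were taken by name from the 13242 genes of the deposited table, and all 7 were present. The data are single-cell RNA counts of macrophages that had been sorted out of mouse quadriceps 1 week after surgery that removed a block of muscle (volumetric muscle loss). The 3 groups differed in what was put into the wound: urinary bladder matrix (UBM, a decellularised tissue scaffold), saline, or polycaprolactone (PCL, a synthetic polyester). Each group is 1 library, with 2280 UBM, 341 saline and 1753 PCL cells, and the sources used here give no strain, age or number of mice per library. The title of the series concerns interleukin-36 gamma from macrophages and fibrosis that depends on interleukin-17.

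Interleukin-1 alpha and interleukin-1 beta bind the same receptor, IL1R1, which with its partner IL1RAP signals through MyD88 to NF-kB. Interleukin-1 beta is made as an inactive precursor and is cut by caspase-1 in the inflammasome, so its messenger RNA does not report the released cytokine. The receptor antagonist encoded by Il1rn occupies IL1R1 without signalling, and the decoy receptor encoded by Il1r2 binds the ligand without passing on a signal. Interleukin-18 is likewise cut by caspase-1, and is held in solution by the binding protein encoded by Il18bp. Interleukin-36 gamma uses the receptor IL1RL2 together with IL1RAP and is best known from skin, where it is linked to interleukin-17 responses. In a muscle wound, interleukin-1 beta comes mainly from neutrophils, monocytes and recently arrived macrophages.

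Of the 7 genes, 4 lie on mouse chromosome 2 in the GENCODE annotation of GRCm38. Il1b spans chr2:129364570-129371139 on the minus strand, and Il1a is beside it at chr2:129299610-129309972, also on the minus strand. Il1f9 (chr2:24186476-24193568) and Il1rn (chr2:24336853-24351494) lie together on the plus strand. The promoters of Il1b, Il1rn and Il1f9, an agonist, its antagonist and the ligand named in the series title, are shown because their RNAs were spread over the clusters in 3 different ways, described further on. The windows are RefSeq sequences on GRCm38.p6, from 250 bases before to 50 bases after the transcription start, at chr2:129371090-129371389 (minus strand), chr2:24336610-24336909 (plus strand) and chr2:24186226-24186525 (plus strand), and capitals mark matches to the motifs searched.
Il1b: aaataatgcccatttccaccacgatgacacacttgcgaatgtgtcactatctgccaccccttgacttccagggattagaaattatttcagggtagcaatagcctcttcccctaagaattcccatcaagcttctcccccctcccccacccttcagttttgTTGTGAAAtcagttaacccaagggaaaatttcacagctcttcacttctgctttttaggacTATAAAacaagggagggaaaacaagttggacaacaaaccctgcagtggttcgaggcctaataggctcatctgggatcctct
Il1rn: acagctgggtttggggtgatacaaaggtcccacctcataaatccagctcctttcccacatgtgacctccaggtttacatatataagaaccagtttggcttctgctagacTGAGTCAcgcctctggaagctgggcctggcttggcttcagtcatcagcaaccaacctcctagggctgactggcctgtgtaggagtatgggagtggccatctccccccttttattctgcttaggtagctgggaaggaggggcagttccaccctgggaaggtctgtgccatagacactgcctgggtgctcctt
Il1f9: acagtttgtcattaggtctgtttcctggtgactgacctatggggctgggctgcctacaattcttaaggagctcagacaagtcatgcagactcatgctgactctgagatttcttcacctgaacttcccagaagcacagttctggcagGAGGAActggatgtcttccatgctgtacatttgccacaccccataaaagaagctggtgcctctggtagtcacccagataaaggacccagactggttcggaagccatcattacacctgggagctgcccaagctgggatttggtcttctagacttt
In the Il1b window the capitals are a C/EBP motif (TTNNGNAA) that starts 91 bases before the start site and a TATA box (TATAAA) that starts 31 bases before it. In the Il1rn window they are an AP-1 motif (TGANTCA) 141 bases before the start, and in the Il1f9 window a PU.1 core (GAGGAA) 104 bases before it. Both strands were searched, and of all 32851 promoters of this length 40.7% held the C/EBP letters, 13.6% the TATA box, 7.81% the AP-1 letters and 28.3% the PU.1 core. No match to the kappaB consensus (found in 4.51% of promoters) or to the cyclic AMP response element core (1.79%) lay in these 3 windows, which says only that those letters are not there. Il1rn has 3 start sites in the table, and the window shown is that of the first. The windows of start sites 2 and 3, not shown, overlap each other. Both held C/EBP matches and no AP-1 match, and that of site 3 also held a TATA box match, after its start. The counting was done from the 3′ end of the transcript, so these data do not say which start site was used.

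Depth ran from 1888343 unique molecular identifiers (UMIs, each a counted RNA molecule) in saline to 14586276 in UBM, with medians of 4594 to 5662 UMIs per cell. Levels are UMIs of a gene per 1000000 UMIs of the library or cluster (CPM), and the range after each is its exact Poisson 95% interval. Ranges after ratios are exact conditional binomial 95% intervals and those after shares of cells are Clopper-Pearson intervals. All cover counting error only, and with 1 library per group no test was possible, so each difference is one between 3 libraries. The sorted label was checked on macrophage genes. Lyz2 had a UMI in 95.9 to 100% of the cells of each library, C1qa in 86.0 to 87.1% and Csf1r in 78.2 to 80.9%. The range was wider for Cd68 (71.0% in saline to 83.7% in UBM) and for Adgre1 (69.1% in PCL to 82.2% in UBM). The 9 clusters are the authors', and no source used here explains their letters. F1, F2 and FP1 held most PCL cells (455, 45 and 1036), R2 only UBM cells (254), and RP1 and RP2 mostly UBM cells (574 of 624 and 640 of 736), so a cluster and its library cannot always be told apart. Libraries shared few cell barcodes: 1 between UBM and saline, 5 between PCL and UBM and 0 between PCL and saline.

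The RNA of this family was lowest in the UBM library. Il1b stood at 104 CPM (98.7 to 109) in UBM, 779 (740 to 820) in saline and 678 (662 to 693) in PCL. Il1rn stood at 50.1 (46.5 to 53.9), 195 (175 to 216) and 386 (375 to 398) CPM in the same order, so the antagonist was highest in PCL and the agonist in saline. Il18 was at 12.5 CPM (10.7 to 14.4) in UBM, 41.3 (32.7 to 51.6) in saline and 47.4 (43.4 to 51.7) in PCL. The saline and PCL intervals overlap for Il18 and not for Il1b or Il1rn, and for all 3 genes UBM lies below both. A level over a whole library mixes the amount per cell with the mix of clusters, so the clusters are given in turn.

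**Figure D1:**
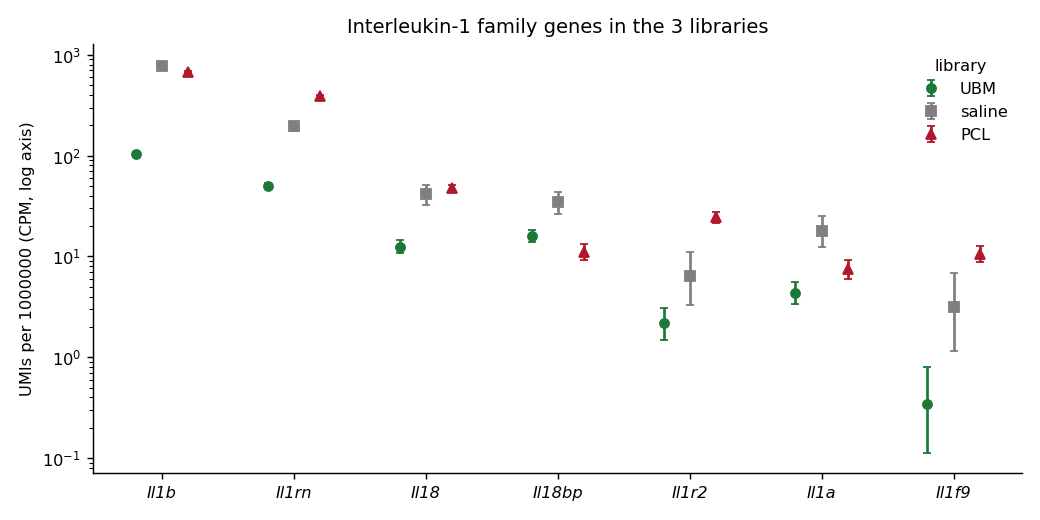
Levels of the 7 genes in the 3 libraries, in UMIs per 1000000 UMIs on a log axis, with exact Poisson 95% intervals that cover counting error only. Green circles are UBM, grey squares saline and red triangles PCL. UBM is the lowest library for every gene except Il18bp, which is lowest in PCL at 11.1 CPM.

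As a rule of size, genes were counted as different when their ratio was at least 2-fold after 10 CPM were added to both libraries. Only genes that reached 20 CPM in one of them were compared. Between UBM and saline, 4 of the 7 genes could be compared, 0 were higher against 2.55% of all 5328 genes compared, and 3 were lower against 4.49%: Il1b, Il1rn and Il18, with log2 ratios of −2.79, −1.77 and −1.19. Between PCL and saline, 5 could be compared, 1 was higher (Il1r2, log2 ratio 1.07) against 2.88% of 5420 genes, and 1 was lower (Il18bp, −1.08) against 2.69%. Between PCL and UBM, 4 could be compared, 4 were higher against 4.28% of 5279 genes, namely Il1b (2.59), Il1rn (2.72), Il18 (1.35) and Il1r2 (1.5), and 0 were lower against 2.06%. The other genes of the 7 were under 20 CPM in both libraries of the pair, apart from Il18bp between UBM and saline and Il1b, Il1rn and Il18 between PCL and saline, which were compared and stayed inside 2-fold. A gene at 20 CPM in one library and near 0 in the other passes the rule by construction, so these counts are a description. The median log2 ratio over all genes compared was −0.07, 0.06 and 0.13 in the 3 pairs. The 3 pairs share libraries and are not independent of each other. These members were counted as different under each of 3 other scalings of the library totals as well. Over all genes, scaling by trimmed mean of M values changed the split from 136 higher and 239 lower to 163 and 187 between UBM and saline, and from 226 and 109 to 185 and 149 between PCL and UBM. That of PCL against UBM became 189 and 144 with the median of ratios and 180 and 154 without ribosomal protein genes and Malat1 in the total.

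Il1b, the agonist, was 7.50-fold lower in UBM than in saline (6.98 to 8.06) and 6.52-fold higher in PCL than in UBM (6.17 to 6.90). PCL was 1.15-fold lower than saline (1.09 to 1.22) over all cells. That small difference turned round, to 1.19-fold higher in PCL, without cluster R1, an omission chosen after its Il1b level had been seen. With F1, FP1, RP2 and RP3, the 4 clusters that have at least 20 cells in every library, weighted equally, UBM was 3.96-fold lower than saline and PCL 3.71-fold higher than UBM. The direction between UBM and the other 2 libraries was the same under all 10 alternatives, while the size of the gap depended on the mix of clusters.

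Within clusters the Il1b gap between UBM and saline was not of one size. In FP1, a cluster of 99 UBM, 72 saline and 1036 PCL cells, Il1b was at 56.7 CPM (41.4 to 75.9) in UBM, 418 (362 to 479) in saline and 434 (418 to 450) in PCL. UBM was thus 7.36-fold lower than saline (5.31 to 10.4), and PCL and saline were level, at a ratio of 1.04 (0.901 to 1.20). In F1, the levels were 344 CPM (278 to 421), 1204 (1092 to 1325) and 1142 (1104 to 1182), and again only UBM stood apart. In R1, UBM cells were at 259 CPM (239 to 280) and saline cells at 1991 (1832 to 2161), and the 14 PCL cells held 203 UMIs, so the saline and PCL cells of R1 carried the most Il1b outside F2.

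RP3 had another order. There Il1b was at 55.6 CPM (41.8 to 72.6) in UBM, 37.2 (17.9 to 68.5) in saline and 145 (115 to 179) in PCL, so saline was not above UBM and PCL was 3.89-fold above saline (2.01 to 8.40). The saline value of RP3 rests on 10 UMIs in 68 cells, 4 of which held one, and 1 cell held 5 of them. Without the cell richest in Il1b in each library, RP3 was at 50.8 CPM in UBM, 19.0 (6.16 to 44.3) in saline and 109 (83.4 to 139) in PCL, with PCL 5.74-fold above saline (2.33 to 18.3). RP2 was at 39.4 CPM (33.4 to 46.2) in UBM, 305 (235 to 390) in saline and 120 (86.0 to 163) in PCL. In R3 the 173 UBM cells were at 203 CPM and the 37 saline cells at 647, while R2, all UBM, was at 70.3 and RP1 at 26.6 in UBM and 356 in PCL. Of the 79 Il1b UMIs of RP1 in PCL, 39 (49.4%) came from 1 cell, and without it the level was 185 CPM (132 to 252). The F2 cells of PCL had the highest Il1b of any set of at least 20 cells, 3580 CPM (3348 to 3823), with a UMI in 45 of 45 cells. F2 is the cluster that carried neutrophil genes: of 12 neutrophil markers 9 were in the table, all 9 had a UMI in its PCL cells, and their summed level was 57087 CPM there and 228 to 613 CPM in the other PCL clusters.

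**Figure D2:**
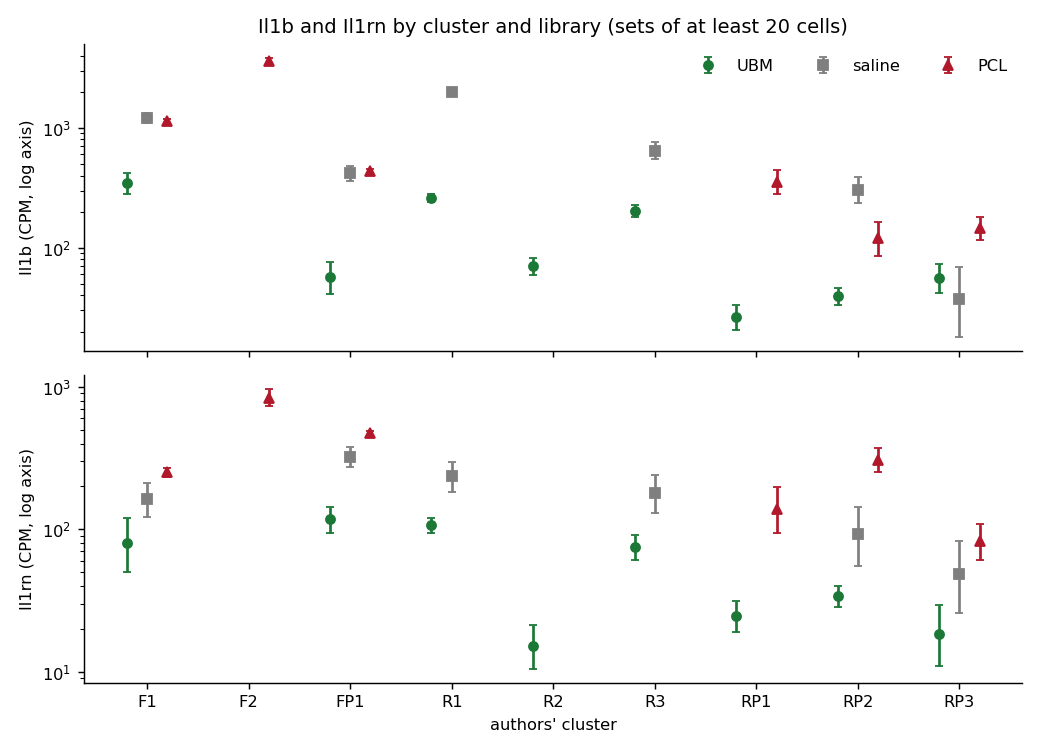
Il1b (upper) and Il1rn (lower) in each cluster and library with at least 20 cells, in UMIs per 1000000 UMIs on log axes, with exact Poisson 95% intervals. In FP1 the UBM circle of Il1b lies at 56.7 CPM, below 418 in saline and 434 in PCL, while RP3 puts saline lowest at 37.2 CPM.

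The clusters that supplied Il1b differed between the libraries. In PCL, F1 held 44.1% of all Il1b UMIs, FP1 37.9% and F2 11.9%. In UBM, R1 held 41.4%, R3 18.4%, RP2 10.1% and R2 10.0%. In saline, R1 held 39.0%, F1 28.8%, FP1 13.9% and R3 10.8%. F1 and FP1 together make up most cells of the PCL library, so these shares follow both the level per cell and the number of cells. R1, the main source in UBM and saline, had the highest level of dendritic cell markers among the clusters with at least 20 cells (9 of 11 in the table, 8 of them with a UMI in UBM and 5 in saline, summed level 257 and 898 CPM), and their part in its Il1b was not tested.

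**Figure D3:**
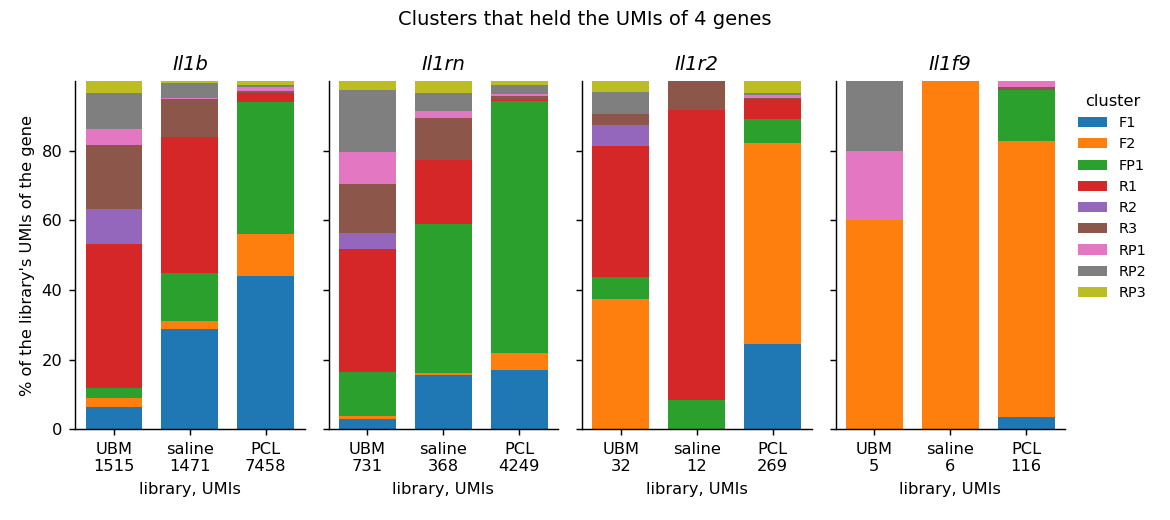
Share of each library's UMIs of Il1b, Il1rn, Il1r2 and Il1f9 held by each of the 9 clusters, in percent, with the number of UMIs under each bar. FP1 holds 72.3% of the Il1rn of PCL, R1 and R3 most of the Il1b of UBM, and F2 79.3% of the Il1f9 of PCL.

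More cells carried Il1b in saline and PCL, and those that did carried more of it. A UMI of Il1b was found in 17.7% of UBM cells (16.2 to 19.3), 45.7% of saline cells (40.4 to 51.2) and 62.8% of PCL cells (60.5 to 65.1). Drawing 2500 UMIs from every cell, without the 162 UBM, 79 saline and 154 PCL cells that had fewer, gave shares of 10.6%, 42.0% and 46.4%. PCL and saline were thus closer to each other at equal depth. Cells with the gene held on average 3.75 UMIs of it in UBM, 9.43 in saline and 6.77 in PCL. Cells with 10 or more Il1b UMIs were 38 of the UBM library (1.67%), 58 of saline (17.0%) and 238 of PCL (13.6%), and held 37.6%, 77.8% and 66.8% of all Il1b. In saline these cells lay mainly in R1 (21) and F1 (20), in PCL in F1 (124), FP1 (67) and F2 (36), and in UBM in R1 (20). All cells were sorted as one population, so there was no cell type that should lack Il1b, and the share that free RNA alone would give could not be set.

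Il1a, the other agonist of IL1R1, was scarce. It gave 64 UMIs in UBM, 34 in saline and 82 in PCL, or 4.39 CPM (3.38 to 5.60), 18.0 (12.5 to 25.2) and 7.45 (5.93 to 9.25). Saline was thus 4.10-fold above UBM (2.62 to 6.31) and 2.42-fold above PCL (1.57 to 3.65). Of the 34 saline UMIs, 17 came from 10 F1 cells, where the level was 48.4 CPM (28.2 to 77.5) against 8.33 (5.34 to 12.4) in PCL. FP1 gave 52 of the 82 PCL UMIs, at 7.97 CPM, and R1 gave 30 of the 64 UBM UMIs, at 12.4 CPM.

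Il1rn, the receptor antagonist, was 3.89-fold lower in UBM than in saline (3.42 to 4.41), 1.98-fold higher in PCL than in saline (1.78 to 2.21) and 7.70-fold higher in PCL than in UBM (7.12 to 8.34). With the 4 clusters weighted equally the first gap was 2.50-fold and the last 4.46-fold. FP1 held 72.3% of the Il1rn UMIs of PCL and 42.7% of those of saline, at 471 CPM (455 to 488) and 321 (273 to 376). In UBM it held 12.7%, at 117 CPM (94.6 to 144), and more of the Il1rn there lay in R1 (35.4%), RP2 (18.1%) and R3 (14.1%). The level was highest in the F2 cells of PCL, 838 CPM (728 to 960). PCL stood above saline both in FP1, 1.47-fold (1.25 to 1.73), and in F1, 1.55-fold (1.18 to 2.06), and by 1.71-fold in RP3 with an interval that includes no difference (0.911 to 3.44). RP2 showed the widest gap between PCL and UBM, 307 CPM (251 to 371) against 34.0 (28.5 to 40.3), or 9.02-fold (6.91 to 11.8). A UMI of Il1rn was found in 17.9% (UBM), 39.3% (saline) and 62.1% (PCL) of cells, and in 8.83%, 27.5% and 43.7% after thinning.

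The balance of Il1b to Il1rn was taken as the UMIs of the agonist divided by those of the antagonist in the same cells, a quantity that does not need the library total. The 2 transcripts may be captured with unequal efficiency, so only changes of the ratio between sets of cells are read. Over all cells it was 2.07 in UBM (1.90 to 2.27), 4.0 in saline (3.56 to 4.49) and 1.76 in PCL (1.69 to 1.82). Saline therefore held the most Il1b per Il1rn, and UBM and PCL lay close to each other although their levels of both genes differed more than 6-fold. Without cluster R1, again an omission made after the data were seen, the ratios were 1.88, 2.99 and 1.71, in the same order.

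The balance ranged more widely over clusters than over libraries. Pooled over libraries, F1 had 4.75 Il1b UMIs per Il1rn UMI (4.40 to 5.13), R1 4.08 (3.62 to 4.61), R3 2.52 (2.13 to 2.99), RP2 1.00 (0.841 to 1.20) and FP1 0.927 (0.882 to 0.973). In F1 the ratio was 4.32 in UBM (2.69 to 7.21), 7.42 in saline (5.62 to 9.97) and 4.55 in PCL (4.20 to 4.94). In FP1 it was 0.484 (0.331 to 0.698), 1.30 (1.05 to 1.61) and 0.921 (0.875 to 0.969). In both clusters saline was highest, although in F1 its interval overlaps that of UBM, and the F1 ratio exceeded the FP1 ratio in each of the 3 libraries with no overlap of intervals. F1 thus held the largest share of the agonist of the PCL library and FP1 the largest share of its antagonist, although both genes were found in both.

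In R1 the balance was 2.42 in UBM (2.09 to 2.81) and 8.44 in saline (6.56 to 11.0). Its Il1b was at 259 and 1991 CPM in those libraries and its Il1rn at 107 (94.3 to 121) and 236 (183 to 299). The PCL cells of R1, a small set of 14, held 203 Il1b and 17 Il1rn UMIs. Their ratio was 11.9 (7.28 to 20.9), with an interval that overlaps that of saline. RP2 was at 1.16 in UBM (0.912 to 1.47), 3.32 in saline (1.96 to 5.87) and 0.390 in PCL (0.265 to 0.565), so its ratio was lowest in PCL with no overlap of intervals. RP1 was at 1.08 in UBM (0.759 to 1.53) and 2.55 in PCL (1.66 to 4.0). Without the 1 cell named above the PCL value of RP1 was 1.43 (0.860 to 2.40), which overlaps that of UBM. Among F1, FP1, RP2 and RP3 the last was the exception, with saline lowest at 0.769 (0.302 to 1.90) against 3.0 in UBM (1.73 to 5.44) and 1.75 in PCL (1.21 to 2.55), on 10 and 13 UMIs in saline. R2, found only in UBM, was at 4.61 (3.14 to 6.93).

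**Figure D4:**
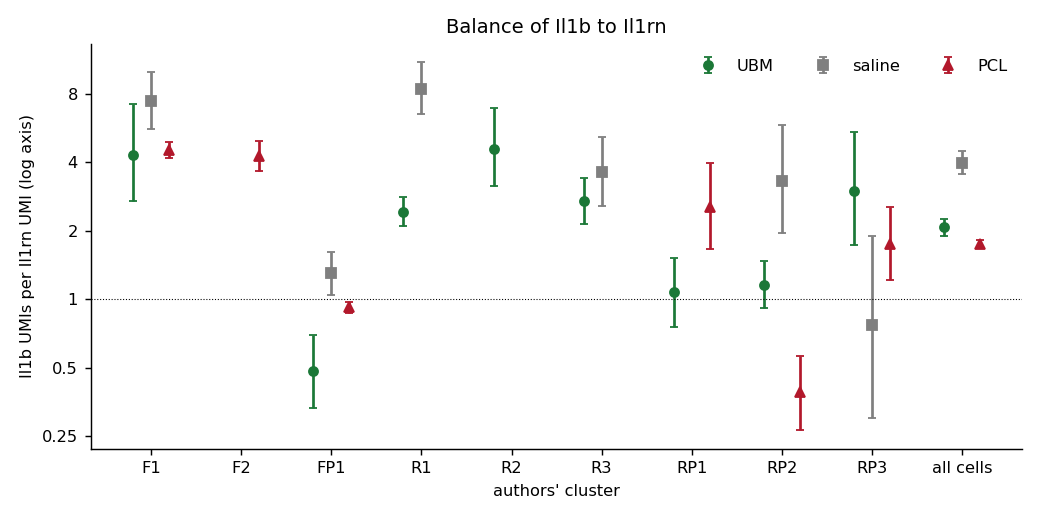
Il1b UMIs per Il1rn UMI in each cluster and library with at least 20 cells, and over all cells, on a log axis with exact 95% intervals. The dotted line marks equal numbers. FP1 lies near or under that line in all 3 libraries (0.484 in UBM, 1.30 in saline, 0.921 in PCL) and F1 above it.

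Agonist and antagonist were also found in the same cells. Both had a UMI in 5.13% (UBM), 24.6% (saline) and 39.5% (PCL) of cells, and in 1.37%, 15.6% and 20.8% after thinning. In PCL, 62.9% of the 1101 cells with Il1b and 60.9% of the 652 cells without it had Il1rn, so over the whole library the shares differed by little. In saline these shares were 53.8% and 27.0%, and in UBM 29.0% and 15.5%. After thinning they were 37.3% and 20.4% in saline and 12.9% and 8.35% in UBM. Within UBM the order was reversed in R1 (36.2% and 39.9%) and RP3 (3.13% and 7.74%). In the other UBM clusters of at least 20 cells the share was higher with Il1b. Within PCL the shares with and without Il1b were 49.9% and 48.7% in F1 and 73.1% and 69.1% in FP1, but 72.0% and 39.4% in RP2, 38.6% and 22.9% in RP3 and 52.9% and 40.0% in RP1. After thinning, those of FP1 were 58.7% and 50%.

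Il1r2, the decoy receptor, was at 2.19 CPM (1.5 to 3.10) in UBM, 6.35 (3.28 to 11.1) in saline and 24.4 (21.6 to 27.5) in PCL. PCL was 3.85-fold above saline (2.17 to 7.54) and 11.1-fold above UBM (7.71 to 16.6). Of the 269 PCL UMIs, 155 were in F2. Without F2, PCL was 1.66-fold above saline, with an interval that includes no difference (0.914 to 3.31), and 7.71-fold above UBM (4.77 to 13.1). Without R1, which held 10 of the 12 saline UMIs, PCL was 18.6-fold above saline (23.0-fold with the 4 clusters weighted equally), and UBM, 2.90-fold below saline over all cells, was 1.32-fold above it. Outside R1 the saline UMIs were 1 in FP1 and 1 in R3. The values without R1 rest on these, and the equal weighting rests on the 1 in FP1, so their sizes are very uncertain. The comparison of Il1r2 with saline therefore depends on which of these clusters is counted.

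Il1r2 had its own distribution outside F2. In F1, 48 of 455 PCL cells held 66 UMIs, 22.9 CPM (17.7 to 29.2), whereas the 64 saline and 43 UBM cells of F1 held none, which allows up to 8.54 and 10.9 CPM at a floor of 3 UMIs. Set against S100a8, a neutrophil gene, PCL cells had 19.4 Il1r2 UMIs per 1000 S100a8 UMIs in F2 (16.4 to 22.7) and 144 in F1 (109 to 186). For S100a9, Retnlg and Il1f9 the intervals of F1 and F2 overlapped. S100a9 was at 645 in F1 (555 to 748) and 689 in F2 (665 to 713), and Retnlg at 37.0 (21.4 to 60.0) and 37.0 (32.8 to 41.5). Il1f9 was at 8.71 (2.36 to 22.5) and 11.5 (9.26 to 14.1). The F1 values of Retnlg and Il1f9 rest on 17 and 4 UMIs. The Il1r2 value was 13.3 in FP1 (7.99 to 20.9), 52.9 in RP3 (23.8 to 103) and, on 15 Il1r2 UMIs in 14 cells, 938 in R1 (432 to 2025).

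Il18 was 3.31-fold lower in UBM than in saline (2.51 to 4.34) and 3.80-fold higher in PCL than in UBM (3.21 to 4.53), and PCL and saline differed by 1.15-fold with an interval that includes no difference (0.904 to 1.48). Its levels in PCL were highest in RP3, at 99.9 CPM (75.9 to 129), and F1, at 89.2 (78.7 to 101), and lower in FP1, at 26.8 (23.0 to 31.1). RP3 was also where PCL stood most above saline, 3.84-fold (1.75 to 9.96), from 58 UMIs against 7. Il18 thus shared with Il1b a low level in UBM and a PCL level above saline in RP3. In PCL its intervals in RP3 and F1 overlapped, whereas Il1b was at 1142 CPM in F1 and 145 in RP3.

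Il18bp, the binding protein that neutralises interleukin-18, was the one inhibitor of the 3 with a lower level in PCL than in saline. It stood at 16.0 CPM (14.1 to 18.2) in UBM, 34.4 (26.6 to 43.9) in saline and 11.1 (9.21 to 13.2) in PCL, 2.15-fold lower in UBM than in saline (1.60 to 2.84) and 3.11-fold lower in PCL than in saline (2.26 to 4.23). With the 4 clusters weighted equally the last was 2.04-fold. Within clusters the ratio of PCL to saline was 0.732 in F1 (0.372 to 1.60), 0.349 in FP1 (0.142 to 1.03) and 2.43 in RP3 (0.820 to 9.74). Each of these intervals includes no difference, and RP3 lay in the other direction. PCL was 1.45-fold lower than UBM (1.16 to 1.82) over all cells, but the 2 were level without R3 and PCL was 1.20-fold higher with the clusters weighted equally. R3 held 38.5% of its UMIs in UBM, at 65.5 CPM (52.7 to 80.6), and 35.4% in saline, at 93.5 (59.3 to 140). The RP2 cells of saline were at 87.2 CPM (51.7 to 138) with 27.7% of that library's UMIs, an interval that overlaps the one of R3. In PCL the UMIs lay in F1 (49.2%), FP1 (23.0%) and RP3 (17.2%), and R3 held 2.46%. R3 also carried the most muscle-fibre RNA, with all 9 markers of that list present and a summed level of 386 CPM in UBM and 4815 in saline, and its part in the Il18bp level was not tested.

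The ratio of Il18 to Il18bp, taken in the same way, was 0.778 in UBM (0.637 to 0.948), 1.20 in saline (0.852 to 1.69) and 4.28 in PCL (3.51 to 5.25). This ratio too is read only between sets, and it was highest in PCL, with an interval above those of UBM and saline. Within F1 of PCL it was 4.28 (3.22 to 5.77) and within FP1 6.25 (4.18 to 9.68), while F1 and FP1 of saline were at 2.30 (1.05 to 5.41) and 3.0 (1.14 to 9.23). In R3 it was 0.344 in UBM (0.221 to 0.523) and 0.609 in saline (0.290 to 1.23), and in the RP2 cells of saline it was 0.389 (0.137 to 0.976). The order of the libraries was thus not that of Il1b to Il1rn, where saline was highest.

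Il1f9, the interleukin-36 gamma gene of the series title, was the rarest of the 7 in UBM and saline, while in PCL Il1a was lower. It gave 5 UMIs in UBM, 6 in saline and 116 in PCL, 0.343 CPM (0.111 to 0.80), 3.18 (1.17 to 6.92) and 10.5 (8.71 to 12.6). PCL was 30.7-fold above UBM (12.8 to 96.5) and 3.32-fold above saline (1.48 to 9.22), or 5.71-fold when the 1 cell with the most Il1f9 was left out of each library. F2 held 92 of the 116 PCL UMIs in 26 of its 45 cells, 6 of the 6 saline UMIs in its 3 cells and 3 of the 5 UBM UMIs in 2 of its 8 cells. S100a8 and S100a9 were in every F2 cell of each library. Among F2 cells Retnlg was found in PCL only, in 32 of 45, and Csf3r was in 33 of those 45. Of the 3 saline cells, 0 had Retnlg, 0 had Csf3r, and 3 had C1qa and Csf1r. Of the 8 UBM cells, 0 had Retnlg, 6 had Csf3r, 6 C1qa and 7 Csf1r. Every one of the 26 PCL F2 cells with Il1f9 also had Il1b, and 20 had Il1r2.

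Outside F2, Il1f9 was close to the limit of detection. The other 1708 PCL cells held 24 UMIs in 20 cells, of which 17 UMIs lay in 14 of the 1036 FP1 cells, the 338 saline cells held none, and the 2272 UBM cells held 2. Without F2, PCL was 16.2-fold above UBM, with an interval of 4.03 to 142 that rests on those 2 UMIs. Per 1000 S100a8 UMIs, PCL cells had 11.5 Il1f9 UMIs in F2 (9.26 to 14.1) and 10.9 outside it (6.97 to 16.3), so the few UMIs of the other clusters came in the same proportion to this neutrophil gene as in F2. Il1f9 made by cells of the other clusters and RNA carried over from F2 cannot be told apart here. Genes of the macrophage list were also present in F2: of its 45 PCL cells, 45 had Lyz2, 31 C1qa and 25 Csf1r, beside 45 with S100a8, 32 with Retnlg and 33 with Csf3r. Over the whole PCL library Lyz2 was in 100% of cells, so it does not separate F2 from other clusters. C1qa was in 86.9% and Csf1r in 78.2% of the PCL library, larger shares than in its F2 cells.

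The receptors of the family were at low levels in these cells. All 7 receptor genes listed (Il1r1, Il1rap, Il1rl1, Il1rl2, Il18r1, Il18rap and Sigirr) were under 20 CPM in each library, so none could be compared. Il1r1, the signalling receptor for interleukin-1, gave 21 UMIs in UBM, 7 in PCL and 0 in saline, where a floor of 3 UMIs allows up to 1.59 CPM. The shared partner Il1rap was at 7.95 CPM in UBM, 11.1 in saline and 15.3 in PCL, and Il1rl1, the interleukin-33 receptor, at 8.50 in UBM, 19.1 in saline and 2.18 in PCL. Il1rl1 was highest in R1, at 31.9 CPM. Il1rl2, which binds interleukin-36 gamma, was at 6.92 CPM in UBM, 4.77 in saline and 2.63 in PCL. Of 10 names listed for other family ligands only Il33 was in the table, at under 1 CPM in each library.

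Few genes that process and release the ligands passed the 2-fold rule. Of the 16 inflammasome and release genes listed, 13 could be compared between UBM and saline, 0 were higher (2.55% of all genes) and 2 lower (4.49%), with a median log2 ratio of −0.27 against −0.07 over all genes. The 2 were the sensor Nlrp3, at 33.0 CPM in UBM and 82.1 in saline, and Casp4, a sensor of intracellular endotoxin, at 48.9 and 118. Casp1, which cuts both precursors, stood at 41.8 CPM in UBM, 52.4 in saline and 56.2 in PCL, and the adaptor Pycard at 254, 259 and 331. Between PCL and saline 0 of 13 were higher (2.88%) and 0 lower (2.69%), with a median of −0.03. Between PCL and UBM 2 of 12 were higher (4.28%), Nlrp3 and Mefv, at log2 ratios of 1.07 and 1.16. Of 8 proteases that can cut family ligands, 6 were in the table and 0 of the 4 that could be compared differed by the rule in any pair.

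Of the 16 genes of receptor signalling from Myd88 to Mapkapk2, 11 could be compared between UBM and saline and 12 in the other pairs, and 0 differed by the rule in any pair, with medians of −0.39, 0.03 and 0.33. The lowest in UBM against saline was Nfkb1, which encodes an NF-kB subunit and its precursor, at 62.9 against 134 CPM (−0.98). Of the 14 signalling brakes, 13 could be compared, and 2 were lower in UBM than in saline (4.49% of all genes): Nfkbie, an inhibitor of NF-kB, at 16.2 against 55.1 CPM, and Zc3h12a, a ribonuclease that degrades cytokine messages, at 23.7 against 73.6. Between PCL and saline 1 of 13 was lower (2.69%), Tnip3, at 87.2 against 309 CPM, and R1 had its highest level of the clusters, 610 CPM. Between PCL and UBM 1 was higher (4.28% of all genes), Nfkbie (1.19), and 1 lower (2.06%), Tnip3 (−1.09).

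Cytokine and chemokine genes that NF-kB can induce differed in both directions. Of 11 compared between UBM and saline, 3 were higher (2.55% of all genes) and 4 lower (4.49%), with a median of −0.26. The acute-phase gene Saa3 was at 602 CPM in UBM and 13.8 in saline and the neutrophil attractant Cxcl1 at 416 and 124, while Nfkbiz, an inducible NF-kB cofactor, was at 116 and 495 and Ccl3 at 78.1 and 277. Between PCL and saline 3 of 11 were higher (2.88%) and 1 lower (2.69%), with Cxcl3 at 430 against 24.4 CPM and Nfkbiz at 142 against 495. Between PCL and UBM 4 were higher (4.28%) and 1, Saa3, lower (2.06%). Low Il1b in UBM thus stood beside both low and high levels of such genes. Of the interleukin-36 and interleukin-17 list, Il17ra, a receptor subunit for interleukin-17, was at 8.64 CPM in UBM, 28.6 in saline and 37.3 in PCL, while Il23a gave 2, 0 and 3 UMIs.

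**Figure D5:**
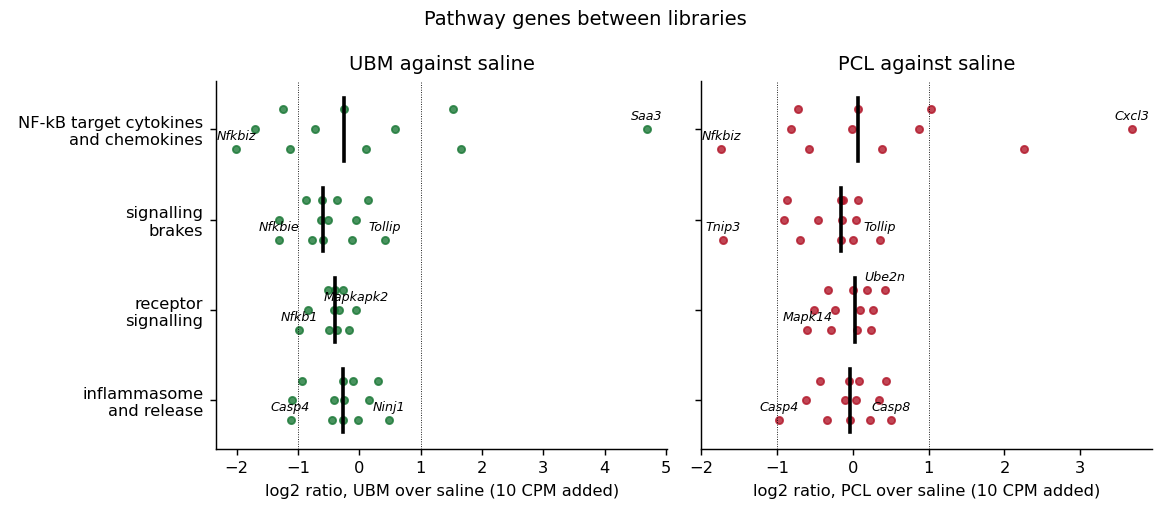
Log2 ratios (10 CPM added) of pathway genes that reached 20 CPM in one of the libraries, UBM over saline (left) and PCL over saline (right), 1 point per gene, with the list's median as a bar and the 2-fold limits as dotted lines. Receptor signalling lies inside the limits in both panels, and the NF-kB targets spread from Nfkbiz on the low side to Saa3 or Cxcl3 on the high side.

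Handling-stress and muscle-fibre RNA were highest in the saline library, where Il1b was highest too. The 13 genes of the dissociation stress list summed to 8326 CPM in saline, 6065 in UBM and 5296 in PCL, and 5 of 12 compared were lower in UBM than in saline (4.49% of all genes) and 4 of 12 lower in PCL than in saline (2.69%). The 9 muscle-fibre genes summed to 751 CPM in saline, 58.2 in UBM and 42.5 in PCL. Monocyte markers were highest in PCL, where they summed to 6548 CPM against 3898 in saline and 3494 in UBM, and 6 of 9 compared were higher in PCL than in saline (2.88%) and 6 of 9 higher than in UBM (4.28%), with medians of 1.22 and 1.72. The 10 macrophage markers summed to 16779 CPM in UBM, 32559 in saline and 23753 in PCL, and 2 of 10 were lower in UBM than in saline (4.49%) and 3 of 10 lower in PCL (2.69%). The part of these 4 lists in the levels of the family was not tested. Inside FP1, where Il1b was 7.36-fold lower in UBM than in saline, the stress list summed to 3938 CPM in UBM, 4824 in saline and 4837 in PCL. The macrophage markers there summed to 10730, 29504 and 22998 CPM in UBM, saline and PCL, and the monocyte markers to 3944, 2973 and 5950.

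Over the 20 sets of 1 cluster in 1 library with at least 20 cells, the genes whose pattern was most like that of each member were found among 4339 genes with at least 50 CPM in some set. The points share libraries and depth, and the correlations of log2 levels (10 CPM added) are a description. Il1b was most like Vasp (r = 0.92) and Sirpb1b (0.90). Next were Coro1a, which encodes an actin-binding protein of leukocytes, and Rac2, a subunit of the phagocyte oxidase. Il1rn was most like Taldo1 (0.89) and Ncf4 (0.88), the latter also of the phagocyte oxidase, and Il18 like Ms4a6c (0.89). Il18bp was most like Vsir (0.84) and the cathepsin gene Ctsh (0.84). Il1r2 was most like Hdc (0.95), which makes histamine, and Il1f9 like Gm5483 (0.99) and Rdh12 (0.99), with Retnlg among the 5 nearest of both. Il1f9 was at 371 CPM in the F2 cells of PCL and at 9.02 CPM or less in the other 19 sets, so its correlations rest on that 1 set, which was also the highest for Il1r2, at 625 CPM. Between members, Il1r2 and Il1f9 were the closest pair (0.90), followed by Il1b and Il1rn (0.78), and Il1rn and Il18bp were the least alike (−0.12). Il1a reached no more than 48.4 CPM and was not searched.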

How the data were processed

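The authors deposited raw UMI counts, whole numbers up to 1880, for 13242 genes in 4374 cells, with a table of each cell's condition and cluster. Per the submitters' design text and processing notes, libraries were made with a 10x 3′ kit, counted with Cell Ranger (version not given in the sources used here), and clustered with Seurat version 2. The notes list genome build hg38, although the symbols are those of mouse. Filters on cells are not given either. No doublet caller was run, and whether doublets were removed before deposit is not given in the sources used here. Condition names were matched to the labels by meaning (extracellular matrix, phosphate-buffered saline, synthetic).

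UMIs were summed per library, or per cluster and library, and divided by the total. Sets of under 20 cells are given as counts or named as small, and ratios within clusters need 50 cells in both libraries. The genes and lists were chosen with earlier results of these data known. Eligible to be named were all 7 genes, the 2 highest and 2 lowest compared genes of each pathway list, and the 5 genes most like each member. Genes outside that rule were named too. Among them were family receptors, Il33 and Il23a, which were under 20 CPM in each library and could not be compared. The ratios and counts of genes were tested on simulated data. Tools were Python 3.11.15, numpy 2.4.6, pandas 2.3.3, scipy 1.17.1 and, for trimmed mean of M values only, edgeR 4.0.16 in R 4.3.3.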

Additional observations from a re-analysis of the deposited data

Results flagged for a closer look

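Il1b stood out in RP3. The ratio of PCL to saline was 3.89 in RP3 (2.01 to 8.40) and 0.949 in F1 (0.857 to 1.05), so the RP3 ratio was 4.10 times the F1 ratio. The ratio of UBM to saline was 1.49 in RP3 (0.754 to 3.29) and 0.136 in FP1 (0.0961 to 0.188), 11.0 times as large in RP3. In both cases the intervals of the 2 clusters do not overlap, and the difference between clusters was not tested, since each group is 1 library. Both rest on the same 10 saline UMIs of RP3. Of those, 5 came from 1 cell, and without the cell richest in Il1b in each library the RP3 ratios were 5.74 (2.33 to 18.3) for PCL to saline and 2.68 (1.07 to 8.61) for UBM to saline. The saline cells of RP3 also had the highest summed level of the dissociation stress genes among the sets of at least 20 cells, 20145 CPM, against 9701 in UBM and 7950 in PCL, and the part of this in the Il1b ratio was not tested.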

How the results depend on the processing

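No paired analysis was possible because each group is 1 library with no replicate. Ratios of Il1b between UBM and saline were 0.147 with trimmed mean of M values, 0.145 with the median of ratios, 0.114 with each cell counted alike, 0.117 without R3 and 0.252 with clusters weighted equally, against 0.133. Those between PCL and UBM were 6.03, 6.08 and 5.99 under the 3 other scalings, 8.02 with each cell alike, 6.02 without F2, 9.12 without R1, 7.27 without R3 and 3.71 with clusters weighted equally. Those between PCL and saline were 0.799 without F2, 0.937 with clusters weighted equally and 1.19, the other direction, without R1. Il1r2 between UBM and saline turned round to 1.32 without R1 and 1.99 with clusters weighted equally, and Il18bp between PCL and UBM to 1.00 without R3 and 1.20 with clusters weighted equally. These Il1r2 values rest on 1 saline UMI in FP1 and, without R1, on 1 more in R3. Leaving out R1, R3 or, within clusters, the cell richest in Il1b was chosen after the data were seen. The last moved 5 of 48 Il1b values out of their counting interval, the levels of F2, RP1 and RP3 in PCL and FP1 in saline and the balance of RP1 in PCL. The balance of Il1b to Il1rn was 1.88 in UBM and 2.99 in saline without R1, 3.15 in saline and 1.66 in PCL with clusters weighted equally, 1.63 in PCL without F2, and 5.11 in saline after thinning. It was highest in saline under each of these. With 1 CPM added, 366 genes were lower in UBM than in saline (239 with 10 CPM) and 224 lower in PCL than in saline (146), and 95 with a minimum of 50 CPM. The causes of these shifts were not tested. Over all members, 172 of 206 alternative ratios stayed within the counting interval, 29 left it in the same direction and 5 changed direction. The median of all genes shifted by 0.13 on the log2 scale between UBM and saline with trimmed mean of M values and by 0.11 with the median of ratios. Depth limits Il1f9, Il1a and Il1r2 most, with 6, 34 and 12 UMIs in saline.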
